A study of Mus musculus with 9 samples.

Results

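Messenger RNA of 9 interferon-induced antiviral genes, Mx1, Mx2, Rsad2, Bst2, Ifitm3, Ifi44, Ifi27l2a, Ifi35 and Apobec3, was compared across RNA sequencing libraries of brain tissue from wild-type (WT) mice. The genes were taken by symbol from the table of estimated counts, and all 9 were among its 1710 genes. The 3 groups, of 3 libraries each, carry the labels PBS, LowDose and HighDose. PBS, a buffered salt solution, is the control. LowDose and HighDose name amounts of adeno-associated virus (AAV), a vector widely used for gene delivery, whose serotype the series text gives as AAV9. The label of a stereotaxic viral injection stands on all 9 libraries, the PBS ones included, and the tissue, labelled "brain ctx", was cut from the injected site 10 days later. The labels do not give the strain, age, sex, the amount behind each dose and whether a library is 1 animal. All errors and tests below therefore concern the spread between libraries, which may be technical.

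Cells that sense viral nucleic acid release type I interferon, which binds a receptor on the same and on neighbouring cells and switches on many genes through the transcription factor complex ISGF3, of which Stat2 and Irf9 are parts. The products of the genes described here act at different steps of a viral life cycle: at entry (Ifitm3), on incoming viral particles and replication (Mx1, Mx2), on nucleotides and viral genomes (Rsad2, Apobec3) and at the release of new particles (Bst2). ISGF3 binds the interferon-stimulated response element (ISRE), a repeat of GAAA blocks in the promoters of such genes, while the gamma-activated site (GAS) is an element known from the response to interferon gamma.

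RefSeq's promoter table for build GRCm38.p6, the assembly behind mm10, held 7 windows for 6 of the 9 genes, the others being Mx1, Mx2 and Ifi27l2a. The core of the ISRE, searched as GAAA, any 2 bases and GAAA on both strands in windows of 300 bases (250 before and 50 after the start), was present in 1 window each of Rsad2, Bst2, Ifitm3 and Apobec3, that is in 4 of 7 windows. It was present in 3.44% of all 32851 promoter windows and in 10.8% of the 1344 windows of genes that rose in HighDose against PBS. The stretches from 170 bases before to 30 after the start are shown, since they hold these matches, which are in capitals. Ifi44 is shown as a strongly changed gene whose window held no match. Its stretch does hold GAAA blocks on the opposite strand (tttcagttttcgtttc). Their spacings differ from 2 bases, so this search does not count them, and the lack of a match does not show that an ISRE is absent.
Rsad2, chr12:26456423-26456622, minus strand: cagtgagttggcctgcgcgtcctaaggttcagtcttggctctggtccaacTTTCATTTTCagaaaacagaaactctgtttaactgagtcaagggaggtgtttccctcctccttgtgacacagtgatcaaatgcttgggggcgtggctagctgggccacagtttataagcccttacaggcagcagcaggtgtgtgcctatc
Bst2, chr8:71537443-71537642, minus strand: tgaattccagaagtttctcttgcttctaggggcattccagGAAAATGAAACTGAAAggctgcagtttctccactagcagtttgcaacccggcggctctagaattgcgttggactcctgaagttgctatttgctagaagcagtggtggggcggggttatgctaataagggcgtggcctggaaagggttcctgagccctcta
Ifitm3, chr7:141010715-141010914, minus strand: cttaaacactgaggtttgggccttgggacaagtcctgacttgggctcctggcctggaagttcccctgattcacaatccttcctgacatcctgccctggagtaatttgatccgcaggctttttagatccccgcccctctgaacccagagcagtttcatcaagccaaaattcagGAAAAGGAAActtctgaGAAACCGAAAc
Apobec3, chr15:79892238-79892437, plus strand: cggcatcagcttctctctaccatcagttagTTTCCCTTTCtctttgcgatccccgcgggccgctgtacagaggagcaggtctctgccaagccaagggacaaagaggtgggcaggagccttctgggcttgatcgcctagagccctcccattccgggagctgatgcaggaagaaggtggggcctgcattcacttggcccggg
Ifi44, chr3:151749881-151750080, minus strand: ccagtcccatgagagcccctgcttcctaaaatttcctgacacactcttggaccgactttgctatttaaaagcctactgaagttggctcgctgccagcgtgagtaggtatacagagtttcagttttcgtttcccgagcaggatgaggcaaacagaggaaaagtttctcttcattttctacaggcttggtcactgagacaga
The match of Rsad2 lay 120 to 111 bases before the start (-120 to -111) and that of Apobec3 at -140 to -131, both on the strand opposite to the gene. Bst2 had matches at -130 to -121 and -124 to -115, which overlap each other. Those of Ifitm3 lay after the start, at 3 to 12 and 20 to 29. The GAS, searched as TTC, any 3 bases and GAA on both strands, was present once each in Bst2 (-136 to -128), Ifitm3 (14 to 22) and Ifi35 (8 to 16), against 8.30% of all windows and 10.6% of those of genes that rose. In Bst2 and Ifitm3 the GAS overlapped an ISRE core. A match shows that the letters are there, and binding was not measured.

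**Figure D1:**
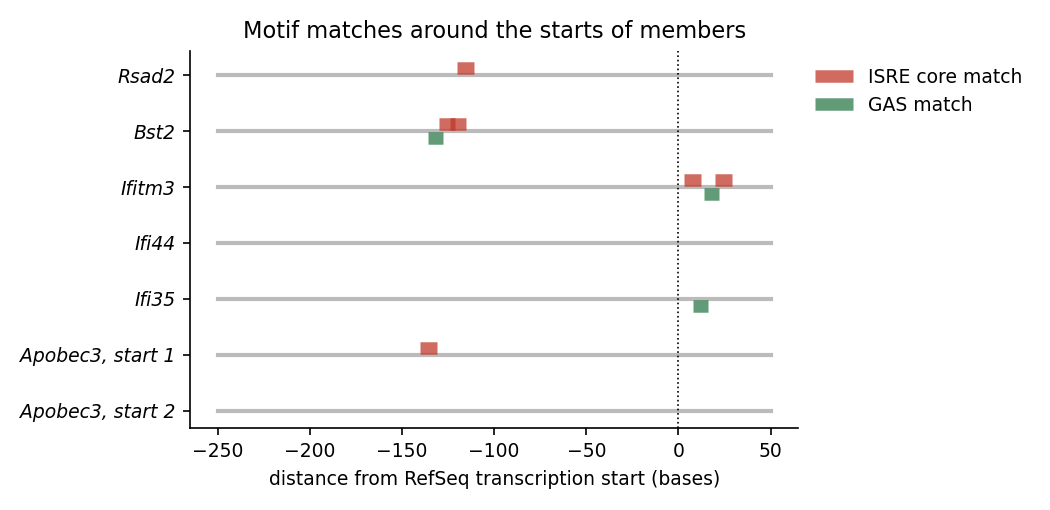
Positions of ISRE core (red) and GAS (green) matches in the 7 RefSeq promoter windows of 6 genes, as distance in bases from the transcription start and grey lines span each window. Matches of Rsad2, Bst2 and Apobec3 to the ISRE core lie upstream of the start and those of Ifitm3 just after it.

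The table lists only genes that differ at least 2-fold in mean FPKM (a count scaled to transcript length and library size) between some groups, which was checked and held for all 1710. Counts were therefore set against library totals of 18344100 to 23725600 counts, recovered from counts and FPKM, and are given as counts-per-million (CPM) values. A total of 1583 genes, the 9 among them, passed the filter on low counts and were tested. Changes are log2 ratios of fitted group means, given ± SE, a gene rose or fell where its p, adjusted over all tested genes by Benjamini-Hochberg, was under 0.05, and folds are 2 to the power of the log2 change. Of these, 86.3% rose in HighDose against PBS, so that a call by itself sets no gene apart here. Scaled within the listed genes by TMM, a method that takes most genes as unchanged, 600 rose and 464 fell in place of 1366 and 169, and with DESeq2 size factors 605 and 455. For HighDose against LowDose the splits were 565 and 461 with TMM and 576 and 445 with size factors, in place of 1394 and 112. The median log2 change of all tested genes in HighDose against PBS was 1.90 with library totals, 0.19 with TMM and 0.22 with size factors. Of the 6 cortical neuron markers looked up, 0 were in the table, so the labelled cortex could not be checked, and 10 of 10 striatal markers were in the table.

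All 9 antiviral genes rose in HighDose against PBS (edgeR quasi-likelihood test, adjusted p from 1.54e-23 to 1.92e-17), against 86.3% of the tested genes, while 10.7% fell, 97% in either direction. The HighDose and PBS libraries did not overlap for any of them, with HighDose higher, which held for 85.8% of the tested genes. Their median log2 change was 6.73, against 1.90 over all tested genes, and they held ranks 4 to 336 of 1583 when genes are ordered by log2 change. With TMM and with size factors all 9 kept their call, at medians of 5.01 and 5.04. Summed over the 9 genes, HighDose replicates 1 to 3 stood at 803, 1227 and 1619.7 CPM, against 16.6, 19.95 and 20.2 CPM in PBS replicates 1 to 3.

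Markers of cell types changed in HighDose against PBS too, some upward and some downward. Of the T cell markers, 7 of 8 were in the table and 7 rose (summed level 12.6 to 28.6 CPM in HighDose, 0.533 to 1.38 CPM in PBS), with Cd3d, a chain of the T cell receptor complex, at 105 counts in HighDose and 0 in PBS, at least 31.8-fold higher with PBS set at 3 counts over the group. Trac, the constant region of a T cell receptor chain, had the lowest change of that list (log2 3.56). Of 5 monocyte and border macrophage markers in the table, out of 8, 4 rose and 1 fell (111 to 197 CPM in HighDose, 2.52 to 2.999 CPM in PBS), from Ly6c2, a surface protein of inflammatory monocytes, at log2 9.30 to Cd163, a scavenger receptor, at -1.59. Of 6 microglia markers in the table, out of 11, 3 rose and 3 fell, and their summed levels overlapped (148 to 160 CPM in HighDose, 119 to 151 CPM in PBS), from Aif1, a calcium-binding protein, at 2.27 to Fcrls, an Fc receptor-like protein, at -1.38. With TMM and with size factors 1 of these 6 rose and 5 fell. Of 4 tested B cell markers 3 rose (3.59 to 8.54 CPM for 5 markers in HighDose, 0.709 to 1.11 CPM in PBS), the highest being Ms4a1, the antigen CD20, with 87 counts in HighDose and 2 in PBS (ratio 39.5, 95% counting interval 10.6 to 331), and the lowest Cd79b, a chain of the B cell receptor, at 1.01 (adjusted p = 0.0680 by edgeR), or -0.75 with TMM. The 1 astrocyte marker in the table, the filament gene Gfap, rose (log2 1.85) but did not pass with TMM (0.14), and both endothelial ones, Ly6c1 (1.11) and Vwf (1.09), rose with library totals but fell with TMM (-0.58 and -0.63) and with size factors, while 3 of 3 oligodendrocyte markers (Mal lowest, at -1.13) and 10 of 10 striatal markers (Ppp1r1b -1.49 to Six3 -3.48) fell. Counts of Ly6c1 and Ly6c2 were not whole (5297.78 and 5793.65 over the HighDose group), so reads may be split between related genes there and these values are uncertain. Of 5 neutrophil markers 0 were in the table, which lists only genes that differ between groups. The 1 marker of plasmacytoid dendritic cells in the table was not tested. The part of these cells in the rise of the antiviral genes was not tested. In bulk tissue, a change in the number of cells of a type and a change in RNA per cell cannot be told apart.

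**Figure D2:**
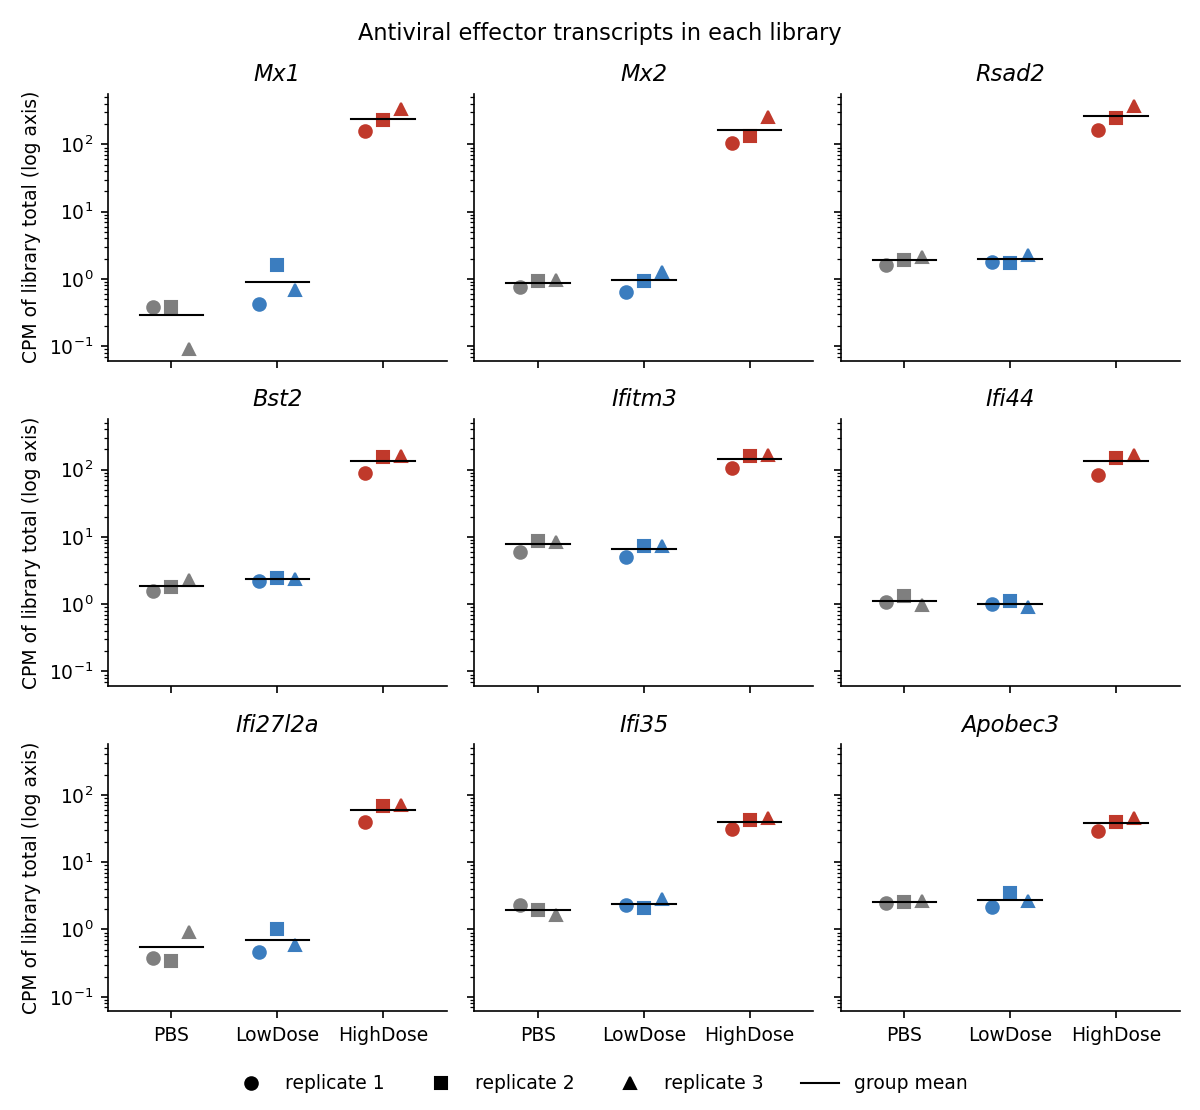
CPM of the library total (log axis) of the 9 antiviral genes in each library of PBS, LowDose and HighDose; symbols mark replicates 1 to 3 and lines the group means. The HighDose libraries lie above all others in each panel, and in LowDose only Mx1 has every library above every PBS library.

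Mx1 and Mx2 encode dynamin-like GTPases that assemble on viral components. Mx1 (ENSMUSG00000000386) lies on the minus strand of chromosome 16 at 97447035 to 97462907 in mm10 and Mx2 (ENSMUSG00000023341) next to it on the plus strand at 97535308 to 97560900, by GENCODE M21. Many inbred laboratory strains carry a defective Mx1, and RefSeq lists both genes as transcribed pseudogenes in its assembly, which is of C57BL/6J. Mx1 stood at 156, 231 and 332 CPM in HighDose replicates 1 to 3, against 0.382, 0.387 and 0.0922 CPM in PBS, where the libraries held 7, 8 and 2 counts. Its log2 change of 9.71 ± 0.42 (SE), or 835-fold, was the largest of the 9 and rank 4 of all 1583 tested genes. Mx2 stood at 106, 135 and 256 CPM in HighDose, against 0.763, 0.920 and 0.968 CPM in PBS, a log2 change of 7.53 ± 0.34 (185-fold). Per length, Mx1 averaged 104 ± 39.0 FPKM in HighDose and 0.12 ± 0.0436 FPKM in PBS, and Mx2 68.3 ± 32.8 FPKM in HighDose and 0.367 ± 0.0416 FPKM in PBS (SD, n = 3 each). The counts of both genes were not whole in the 3 HighDose libraries, so reads may be split between relatives there and these values are uncertain.

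Rsad2 encodes viperin, a radical SAM enzyme that makes an altered nucleotide which stops viral polymerases. In the same build and annotation it spans chr12:26442746-26456452 (minus strand, ENSMUSG00000020641). It stood at 163, 245 and 378 CPM in HighDose replicates 1 to 3, against 1.64, 1.89 and 2.12 CPM in PBS, a log2 change of 7.11 ± 0.31 (138-fold). The HighDose libraries of Rsad2 spread by 2.32 times between lowest and highest, its PBS libraries by 1.30 times. Cmpk2, a mitochondrial nucleotide kinase gene that lies next to Rsad2 on chromosome 12 in the opposite direction, rose too, at 198, 304 and 367 CPM in HighDose and 25.3, 26.7 and 27.8 CPM in PBS (log2 3.44 ± 0.24). With TMM the change of Rsad2 was 5.36 and that of Cmpk2 1.71.

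Apobec3 encodes a cytidine deaminase that mutates the DNA of retroviruses. It spans chr15:79891659-79915906 (plus strand, ENSMUSG00000009585). It stood at 29.3, 39.8 and 45.8 CPM in HighDose, against 2.51, 2.57 and 2.67 CPM in PBS, and its log2 change of 3.89 ± 0.26 (14.8-fold) was the smallest of the 9. The relative Apobec1, which edits the messenger RNA of apolipoprotein B, rose too, by 4.02 ± 0.32 on the log2 scale. The transcript length that links the deposited counts and FPKM of Apobec3 ranged over libraries from 1.77 to 2.26 kb, a ratio of 1.28, while for Rsad2, Bst2, Ifitm3, Ifi44 and Ifi27l2a the ratio stayed below 1.01 over the libraries with at least 1 FPKM. For Apobec3 this length was 1.79, 2.02 and 1.88 kb in HighDose and 1.99, 1.78 and 1.77 kb in PBS, so the groups overlapped. Exons of Apobec3 overlap those of Cbx7 on the opposite strand. They also overlap D730005E14Rik, annotated as antisense, which lies on the same strand as Apobec3. Those of Ifi35 overlap an antisense gene on the opposite strand. The strand setting of the counting is not given, so both genes could share reads with the genes on the opposite strand. Counting by strand would not separate Apobec3 from D730005E14Rik.

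Bst2, at chr8:71534255-71537456 (minus strand, ENSMUSG00000046718), and Ifitm3, at chr7:141009586-141010770 (minus strand, ENSMUSG00000025492), encode membrane proteins. Bst2, or tetherin, holds budding viral particles at the cell surface, and stood at 88.0, 156 and 161 CPM in HighDose, against 1.58, 1.79 and 2.31 CPM in PBS (log2 6.15 ± 0.29, 70.8-fold). Ifitm3 blocks the fusion of viral envelopes with endosomes. It stood at 107, 158 and 168 CPM in HighDose, against 5.94, 8.81 and 8.48 CPM in PBS (log2 4.21 ± 0.26, 18.6-fold). The HighDose and PBS libraries of both genes were far apart, and the 95% intervals of the 2 changes did not overlap (5.56 to 6.73 for Bst2, 3.70 to 4.73 for Ifitm3). Of its relatives on chromosome 7, Ifitm6 (log2 4.06 ± 0.58), Ifitm1 (2.67 ± 0.33) and Ifitm2 (1.61 ± 0.25) rose too, though Ifitm2 lost its call and turned to -0.11 with TMM and -0.08 with size factors. Ifitm1 averaged 9.16 ± 2.21 CPM in HighDose and 1.44 ± 0.226 CPM in PBS, Ifitm2 17.3 ± 4.51 and 5.68 ± 0.683 CPM, and Ifitm6 2.86 ± 1.40 and 0.168 ± 0.0667 CPM (SD, n = 3 each).

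Ifi44, Ifi27l2a and Ifi35 encode interferon-induced proteins that are less well understood, and lie at chr3:151730922-151749960 (minus strand, ENSMUSG00000028037), chr12:103442167-103443680 (minus strand, ENSMUSG00000079017) and chr11:101448407-101458698 (plus strand, ENSMUSG00000010358). Ifi44 stood at 82.7, 151 and 164 CPM in HighDose, against 1.09, 1.31 and 0.968 CPM in PBS (log2 6.88 ± 0.31, 118-fold). Ifi27l2a, which encodes a small hydrophobic protein also known as Isg12, stood at 39.8, 69.5 and 70.3 CPM in HighDose, against 0.382, 0.339 and 0.922 CPM in PBS (log2 6.73 ± 0.35, 106-fold). The PBS libraries of Ifi27l2a spread by 2.72 times between lowest and highest, on 7, 7 and 20 counts. Ifi35, whose product pairs with that of Nmi, stood at 31.5, 42.4 and 45.5 CPM in HighDose, against 2.29, 1.94 and 1.66 CPM in PBS (log2 4.34 ± 0.27, 20.3-fold). Nmi itself rose by 3.62 ± 0.27 on the log2 scale.

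The log2 changes fell into a lower set and a higher one. The 95% intervals of Apobec3, Ifitm3 and Ifi35 ran from 3.35 to 4.89, below those of the other 6 genes, of which the lowest bound was 5.56 (Bst2). Among Mx2, Rsad2, Ifi44, Ifi27l2a and Bst2 each interval overlapped that of its neighbour in order. The interval of Mx1, 8.85 to 10.6, lay above that of Mx2, 6.84 to 8.22. The folds depend on the scaling, since with TMM the log2 changes were 7.98 for Mx1, 5.78 for Mx2, 5.36 for Rsad2, 5.15 for Ifi44, 5.01 for Ifi27l2a, 4.42 for Bst2, 2.64 for Ifi35, 2.50 for Ifitm3 and 2.17 for Apobec3. Their order was the same as with library totals.

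**Figure D3:**
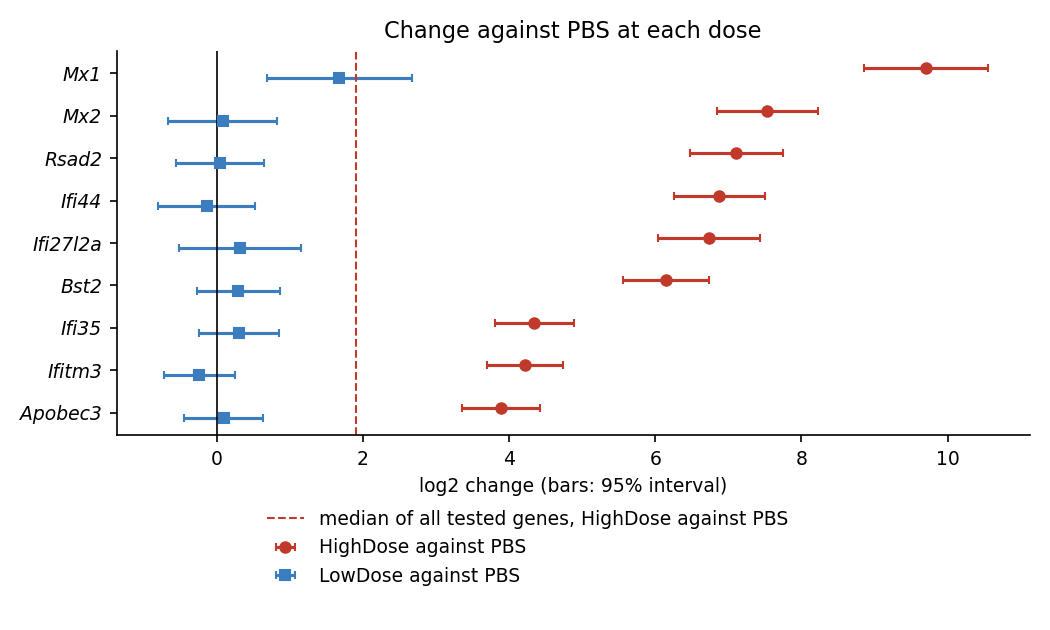
Log2 change of the 9 genes in HighDose against PBS (red) and in LowDose against PBS (blue), with 95% intervals from the edgeR fit; the dashed line is the median of all tested genes in HighDose against PBS, 1.90. All 9 HighDose changes lie right of that line, and the LowDose intervals span 0 except that of Mx1.

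On the FPKM scale, which sets genes of different length side by side, the levels lay closer together in HighDose than in PBS. The mean FPKM of the highest gene stood 95.2 times above that of the lowest in PBS, 27.8 times in LowDose and 10.5 times in HighDose. The PBS span rests on Mx1, the lowest gene there, at 0.12 FPKM on 17 counts over the group. Mx2, the next lowest in PBS, averaged 0.367 FPKM, so the difference between the PBS and LowDose spans depends on Mx1. The order in HighDose was Ifitm3 (213 ± 48.3 FPKM, SD, n = 3), Bst2 (171 ± 51.6), Ifi27l2a (129 ± 37.6), Mx1 (104 ± 39.0), Rsad2 (69.2 ± 28.6), Mx2 (68.3 ± 32.8), Ifi44 (45.5 ± 14.995), Ifi35 (30.4 ± 5.57) and Apobec3 (20.2 ± 4.01). Each gene overlapped its neighbour in range there, yet the order held within each of the 3 libraries for 7 of the 8 neighbouring pairs, the exception being Rsad2 and Mx2. The order in PBS was Ifitm3 (11.4 ± 2.32 FPKM), Bst2 (2.39 ± 0.469), Ifi35 (1.48 ± 0.216), Apobec3 (1.40 ± 0.129), Ifi27l2a (1.18 ± 0.703), Rsad2 (0.497 ± 0.0651), Ifi44 (0.383 ± 0.0611), Mx2 (0.367 ± 0.0416) and Mx1 (0.12 ± 0.0436). Neighbours there whose library ranges overlapped were Ifi35 with Apobec3, Apobec3 with Ifi27l2a, Rsad2 with Ifi44 and Ifi44 with Mx2. Mx1 held rank 4 of 9 in HighDose and rank 9 in PBS, and Apobec3 rank 9 in HighDose and rank 4 in PBS. The order in LowDose ran from Ifitm3 (9.72 ± 1.96 FPKM) to Ifi44 (0.35 ± 0.04), with Mx1 (0.43 ± 0.269) at rank 7.

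**Figure D4:**
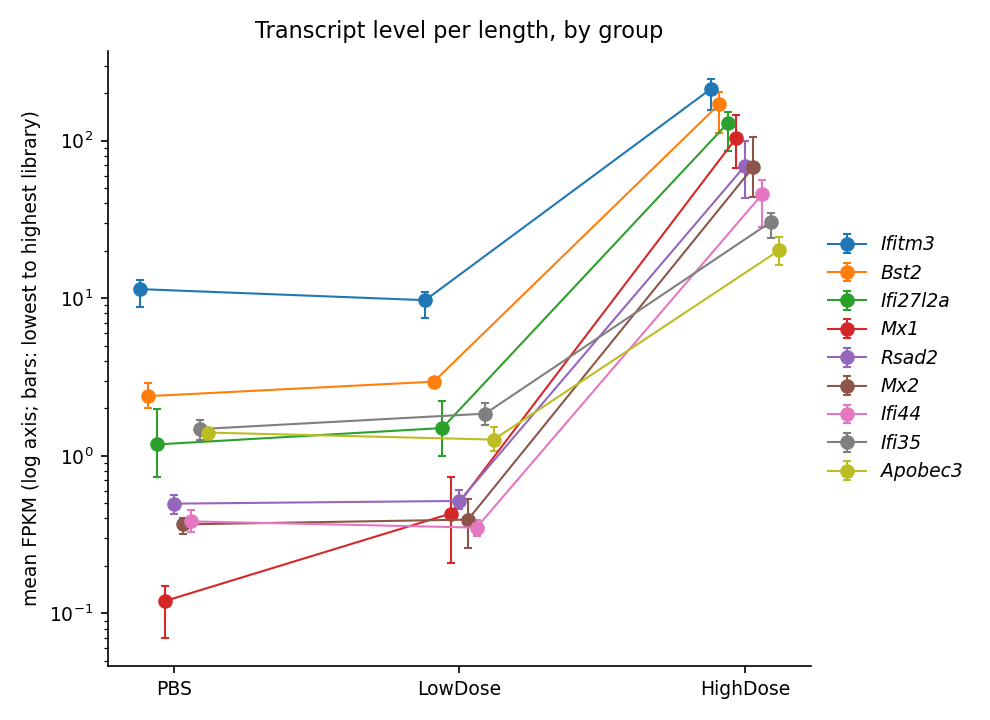
Mean FPKM (log axis) of the 9 genes in PBS, LowDose and HighDose, with bars from the lowest to the highest library of the group; points are offset sideways for reading. The 9 genes span 95.2 times in PBS, 27.8 times in LowDose and 10.5 times in HighDose. The PBS span rests on Mx1, the lowest gene there, with 17 counts over the group.

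In LowDose, 0 of 9 antiviral genes passed the test against PBS, where 0.442% of the tested genes rose and 2.15% fell, 2.59% in either direction (edgeR quasi-likelihood test). These were 41 genes, or 62 with the replicate number as a block. At an unadjusted p under 0.05, 1 of the 9 did, which was Mx1, against 11.7% of the tested genes, so that this count is no more than the background share. DESeq2 also called 0. Apart from Mx1, log2 changes ran from -0.24 (Ifitm3) to 0.32 (Ifi27l2a), and their 95% intervals reached from -0.80 to 1.16. Ifitm3 stood at 5.06, 7.28 and 7.43 CPM in LowDose, against 5.94, 8.81 and 8.48 CPM in PBS, and Rsad2 at 1.81, 1.75 and 2.30 CPM, against 1.64, 1.89 and 2.12 CPM. Mx2 stood at 0.632, 0.944 and 1.28 CPM in LowDose, against 0.763, 0.920 and 0.968 CPM in PBS. The groups overlapped in these genes, as they did in Bst2 (2.23 to 2.43 CPM in LowDose, 1.58 to 2.31 CPM in PBS), Ifi44 (0.908 to 1.12 and 0.968 to 1.31 CPM), Ifi27l2a (0.464 to 1.03 and 0.339 to 0.922 CPM), Ifi35 (2.07 to 2.89 and 1.66 to 2.29 CPM) and Apobec3 (2.15 to 3.46 and 2.51 to 2.67 CPM). The width of these intervals leaves room for changes of the size of 1.16 on the log2 scale in Ifi27l2a, which rests on 45 counts in LowDose and 34 in PBS.

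Mx1 was the exception among the 9 genes in LowDose. It had 10, 36 and 13 counts in LowDose replicates 1 to 3, or 0.421, 1.62 and 0.695 CPM, against 7, 8 and 2 counts in PBS, or 0.382, 0.387 and 0.0922 CPM. Every LowDose library was above every PBS library, by little in LowDose replicate 1, which held for 6.63% of the tested genes. The log2 change was 1.68 ± 0.49 (95% interval 0.69 to 2.67, unadjusted p = 0.00140), and with an adjusted p of 0.0517 by edgeR it did not pass. Mx1 passed the filter on low counts with the HighDose libraries in the fit. In fits of only LowDose and PBS it failed that filter and was not tested, so its p-values here need caution. With the replicate number as a block it passed, at log2 1.66 and adjusted p = 0.0161. Over the alternatives that tested Mx1, its adjusted p ran from 0.000353 to 0.586. Leaving out PBS replicate 1 (0.0112) or 2 (0.0188), LowDose replicate 1 (0.000353) or 3 (0.0118), or HighDose replicate 2 (0.0104) brought its adjusted p under 0.05, while without LowDose replicate 2, the library with 36 counts, the log2 change was 0.94 with an adjusted p of 0.586. By DESeq2 the adjusted p was 0.291. Without PBS replicate 3 the log2 change was 1.23 with an adjusted p of 0.173.

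Cell markers moved in LowDose too, though not all of the lists. Of the striatal markers 9 of 10 fell against PBS (median log2 -1.19, summed level 285 to 677 CPM in LowDose, 824 to 1234 CPM in PBS), and of the oligodendrocyte markers 2 of 3 (median -0.78, 1004 to 1221 CPM in LowDose, 1663 to 2182 CPM in PBS). With TMM and with size factors 0 of either list passed, at medians of -1.13 and -0.73 with TMM, and with the replicate block 10 and 3 fell. Of the tested markers of T cells, B cells, monocytes and border macrophages, and microglia, 0 passed. Summed T cell markers stood at 1.01 to 1.62 CPM in LowDose and 0.533 to 1.38 CPM in PBS, and overlapped, as did those of monocytes and border macrophages (2.35 to 3.33 CPM in LowDose, 2.52 to 2.999 CPM in PBS). Every LowDose library was below every PBS library in the sums of B cell markers (0.337 to 0.674 CPM in LowDose, 0.709 to 1.11 CPM in PBS) and of microglia markers (109.8 to 116 CPM in LowDose, 119 to 151 CPM in PBS). The B cell sums rest on few counts, since 3 counts amount to 0.126 to 0.164 CPM, so their separation is uncertain. The part of the listed cell types in the LowDose levels of the 9 genes was not tested.

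Against LowDose, all 9 genes rose in HighDose (adjusted p from 1.19e-23 to 3.36e-17), where 88.1% of the tested genes rose and 7.08% fell, 95.1% in either direction. No HighDose library overlapped a LowDose one in any of the 9, as in 86.5% of the tested genes. The 2 comparisons of HighDose share its libraries. Log2 changes against LowDose ran from 3.79 ± 0.26 for Apobec3 to 8.03 ± 0.37 for Mx1, with a median of 6.41, against 1.88 over all tested genes. For Mx1 the change against LowDose was smaller than that against PBS (8.03 and 9.71), and for the other 8 genes the 2 changes were within 0.32 of each other.

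The HighDose libraries differed among themselves in the same direction for all 9 genes. Replicate 1 was the lowest and replicate 3 the highest library for 9 of 9, as for 953 of the 1366 genes that rose (69.8%). The share of the library total held by the listed genes had the same order, at 3.90%, 5.21% and 6.04% in replicates 1 to 3. The ratio of replicate 3 to replicate 1 was 2.42 for Mx2, 2.32 for Rsad2 and 2.12 for Mx1, against a median of 1.58 (quartiles 1.37 and 1.84) over the genes that rose. It was 1.98 for Ifi44, 1.83 for Bst2, 1.77 for Ifi27l2a, 1.57 for Ifitm3, 1.56 for Apobec3 and 1.45 for Ifi35. The 3 genes with the largest log2 changes thus also had the widest spread. They differed from the other 6 in where the spread lay, since replicate 3 exceeded replicate 2 by 1.44 times for Mx1, 1.89 times for Mx2 and 1.54 times for Rsad2, but by 1.01 to 1.15 times for the others. This split was seen in the values and is given without a test.

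**Figure D5:**
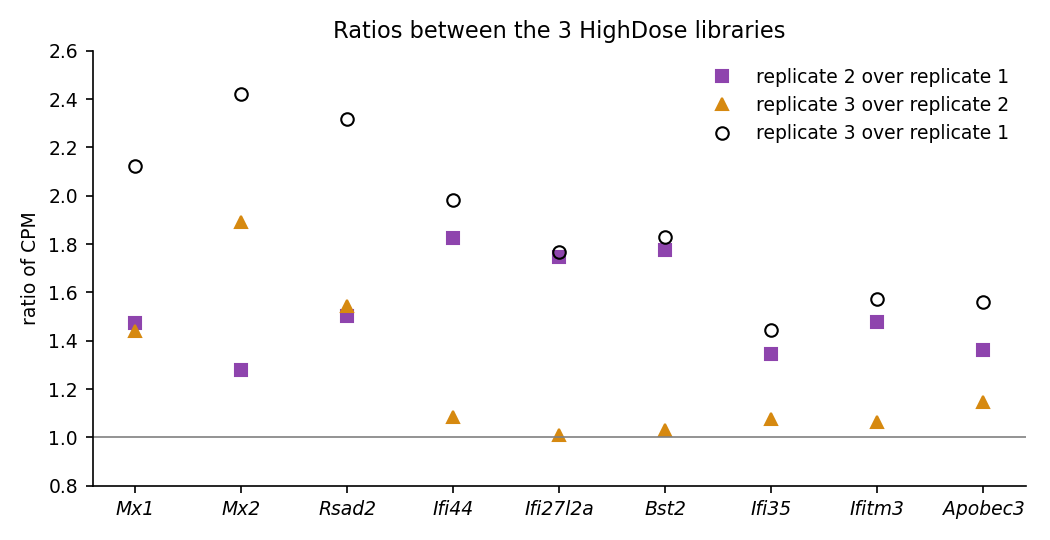
Ratios of CPM between the 3 HighDose libraries for each of the 9 genes, ordered from the largest log2 change against PBS (left) to the smallest. Replicate 3 over replicate 2 (triangles) is 1.44 or more for Mx1, Mx2 and Rsad2 and 1.15 or less for the other 6 genes.

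Of 16 genes from the interferon receptors to ISGF3 and its brakes, 11 were in the table, 9 were tested and 9 rose in HighDose against PBS (median log2 4.22). Of ISGF3, Stat2 rose by 3.70 ± 0.24 and Irf9 by 3.86 ± 0.25, and the receptor chain Ifnar2 by 0.98 ± 0.22, below the median of all tested genes. Ifnar2 fell with TMM (-0.71) and with size factors (-0.69). The other 8 rose under both scalings. The factors Irf7 and Irf1 rose by 6.19 ± 0.29 and 4.60 ± 0.25, and the brakes on the pathway by 7.06 ± 0.31 (Usp18), 4.22 ± 0.37 (Socs1) and 3.54 ± 0.27 (Socs3). Ifnb1, interferon beta, had 57 counts in HighDose (0.831, 0.335 and 1.34 CPM in replicates 1 to 3) and 0 in PBS, and Ifng, interferon gamma, 44 and 1, and both were below the filter. The HighDose library lowest in Ifnb1 was replicate 2, unlike in the 9 antiviral genes. With 57 counts over the group, this order of the Ifnb1 levels is uncertain. In LowDose 0 of these 9 passed against PBS, with log2 values from -0.80 (Irf7) to 0.64 (Socs1). With the replicate number as a block, 1 of these 9 fell and 0 rose.

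Among 36 other restriction factors and interferon effectors, 34 were in the table and 34 rose in HighDose against PBS, with a median log2 change of 5.28, below the 6.73 of the 9 genes. The highest was Slfn1, of a family of growth and translation regulators, with 1426 counts in HighDose and 2 in PBS (ratio 647, 95% counting interval 179 to 5350). Under either scaling 31 of the 34 rose and 0 fell. Among 1289 other tested genes with a mean of at least 1 CPM, those closest to the mean profile of the 9 antiviral genes over the 9 libraries were Gbp3, Slfn8, Ifi207, Ifit2 and Tgtp2. Their root mean square differences from that profile, on log2(CPM + 0.5) centred on PBS, were 0.174, 0.182, 0.184, 0.189 and 0.190.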

How the data were processed

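RNA of 9 libraries (3 groups of 3) was sequenced, and the authors deposited 1 table of estimated counts and FPKM per gene for the series. The build mm10 and the tools DESeq2 and edgeR are named, with no role, per the submitters' processing notes; aligner and counter: not given in the sources used here. The genes and lists described were chosen with earlier results of these data known. Genes were named by Ensembl ID from GENCODE M21. Library totals (18344100 to 23725600 counts) came from count over FPKM in single-transcript genes. Estimated counts were rounded and tested with edgeR 4.0.16 (quasi-likelihood, all 9 libraries in 1 fit, library totals as scaling, default filter on low counts with a minimum count of 10), with Benjamini-Hochberg adjustment over all tested genes and a threshold of 0.05, after the script was tested on simulated data. A count of 3 amounts to 0.126 to 0.164 CPM per library, and counting intervals cover counting error only. Named are the 9 genes, every listed relative and receptor-to-ISGF3 gene in the table, the highest and lowest gene of each other list, and the 5 genes of most similar profile. A few genes that this rule names are not reported here.

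Other settings tried were TMM, DESeq2 1.42.0 size factors or Wald test, other filters, only the groups compared, the replicate number as a block, and each library left out. Replicate numbers are from the labels. Deviations of same-numbered LowDose and PBS libraries correlated in every pair (r = 0.246, 0.165 and 0.137 over genes), above 0.1. The numbers may therefore pair these groups, but differently numbered libraries were not compared, so this check cannot establish a pairing. The reported results come from the fit without the block, and the block is given beside a result where it changes a call. HighDose with LowDose (0.183, 0.0142 and 0.0833) and with PBS (0.0687, -0.00571 and 0.151) did not pass this check in every pair.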

Additional observations from a re-analysis of the deposited data

How the results depend on the processing

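In both HighDose comparisons the 9 antiviral genes kept their call and direction in all 17 alternatives, each library left out included. Against PBS, genes called numbered 1504 to 1599 with 1 library left out, against 1535, and against LowDose 1463 to 1570, against 1506.

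In LowDose against PBS, 0 of the 9 genes were called, but 1 (Mx1) was with no filter on low counts and 1 with the replicate number as a block, and 0 to 1 with 1 library left out. The count over all tested genes was 41, against 6 with TMM, 6 with size factors, 62 with the replicate block, 102 with the block in a fit of only those groups (an alternative chosen after seeing the data) and 26 to 79 with 1 library left out. Fits of only those groups did not test Mx1, which failed their filter. With 1 library left out, log2 changes ran from -0.18 to 0.31 for Mx2, -0.08 to 0.14 for Rsad2, -0.09 to 0.94 for Ifi27l2a and -0.11 to 0.25 for Apobec3, so the sign was not fixed. Below 0 were Mx2 (-0.01) and Rsad2 (-0.04) without PBS replicate 1, Mx2 (-0.18) and Rsad2 (-0.0815) without LowDose replicate 3, and Ifi27l2a (-0.0943) and Apobec3 (-0.11) without LowDose replicate 2. The cause was not tested. The block changed no other call among the 9 genes. Low counts limit Mx1, Mx2 and Ifi27l2a in PBS, at 17, 54 and 34 counts per group.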

Other observations

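The transcript length behind the FPKM of Apobec3 was 2.01, 2.26 and 2.23 kb in LowDose replicates 1 to 3, against 1.99, 1.78 and 1.77 kb in PBS. Every LowDose library lay above every PBS library, by little in replicate 1, while HighDose libraries, at 1.79, 2.02 and 1.88 kb, overlapped those of PBS. The lengths in LowDose and PBS are uncertain, since Apobec3 had only 50 to 77 counts per library in LowDose and 46 to 58 in PBS. In HighDose it had 670 to 1056. The length of Ifi35, which also varied, ranged from 1.27 to 1.36 kb. These values were noticed after the data were seen and were not tested.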
